A study of Acipenser sinensis with 45 samples.

Results

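Among the 6 stage I gonads of Chinese sturgeon (Acipenser sinensis), 200 of the 121952 assembled unigenes were set apart as those whose levels differed most from one gonad to another. A unigene is a transcript sequence assembled from the reads without a genome, and its level was given as FPKM, a fragment count corrected for the length of the unigene and the size of the library. The 22024 unigenes with a mean of 5 FPKM or more in these 6 libraries were ranked by the SD of log2(FPKM + 1) over the 6, and the members are the 200 chosen by the largest SD. The stage I gonad values were thus used in the choice and are described below without a test. The members' levels in the other 39 libraries took no part in the choice. The SD ran from 3.40 for Unigene94773 to 1.91 at rank 200, with a median of 0.60 over the other 21824 unigenes of the ranked pool. The ranks on both sides of the limit were close together: the last members inside it, Unigene38267 and Unigene46305, and the first unigenes outside it, Unigene47571 and Unigene64259, all had an SD of 1.91. Unigene46305 had 0, 18.3, 9.05, 27.6, 24.5 and 32.2 FPKM in libraries 1 to 6, and Unigene47571 had 1.90, 49.9, 7.96, 0.273, 3.83 and 0.984 FPKM.

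RNA was sequenced from the hypothalamus, the pituitary and the gonad of 15 fish of an artificially bred population, with 1 library for each tissue of each fish (45 libraries). The gonads were the stage I gonads of 6 fish that were 1 year old (UG), whose sex cannot be told by histology at that stage, the stage II testes of 6 males (MG) and the stage II ovaries of 3 females (FG), all of these males and females being more than 4 years old. The pituitaries (UP, MP and FP) and the hypothalami (UH, MH and FH) came from the same 15 fish, and a fish keeps its number across tissues. No genotype, treatment or cell sorting was involved, and the stage I fish differ from the stage II fish in age as well as in stage.

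The hypothalamus, the pituitary and the gonad form the axis that controls reproduction in vertebrates: releasing hormones from the hypothalamus act on the pituitary, its gonadotropins act on the gonad, and gonadal steroids act back on both. An early gonad holds primordial germ cells, the somatic cells that will support them and produce steroids, and connective tissue and vessels. As a male gonad matures, spermatogonia multiply within cysts of supporting cells, and an ovary fills with growing oocytes that store RNA. In bulk samples such as these, fewer cells of a type and less RNA per cell cannot be told apart. None of the unigene names could be matched to a gene name (0 of them among the 78555 genes of the RefSeq table of CSRI_AciSin_1.0), so no function is given to any member, and no list of cell type markers could be applied to check the tissue labels.

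By the measures that FPKM values allow, the stage I gonad libraries were of similar size except UG1, which was smaller. All 6 held between 59271 (UG6) and 73873 (UG2) unigenes at 1 FPKM or more. Their relative depth was 1.00 to 1.06 except in UG1, where it was 0.79. UG1 also listed the most unigenes at 0, which was 26345, against 11519 to 19928 in the other 5. In the read statistics printed by the study, UG1 had the fewest reads of the 6. UG5 and UG6 had a lower base quality and a lower GC content there than UG1 to UG4. The part of these differences in the choice of members was not tested. In FPKM estimates a value of 0 can be a failed estimate as well as absence, so such values are described as listed at 0. The libraries of female fish 2 and 3 were sequenced on a later HiSeq model than all other libraries.

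For 2 libraries of male fish 4 the labels contradict themselves: the tissue in words is the other one than the letter in the library code gives. The code was followed. By the code, MP4 correlated at 0.91 to 0.93 with the other 5 MP libraries and at 0.70 to 0.72 with the other 5 MH libraries (Pearson's r of log2(FPKM + 1) over all unigenes), and MH4 at 0.74 to 0.76 with MP and at 0.93 with every one of the other 5 in MH. Results that use both are given with the 2 exchanged as well.

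Before the members are described, 1 more library has to be set apart, because its pattern went against its label. Some unigenes were on in some stage I fish and off in others, in the pituitary and in the hypothalamus alike. Taking on as 2 FPKM or more and off as 0.5 FPKM or less in both tissues, and asking that the gonads also hold both states, 66 unigenes gave such a pattern over the 6 fish. Of these, 5 were members and 61 were not. UG1 was in the same state as its own fish for 52 of 55 clear unigenes, UG2 for 61 of 63, UG3 for 52 of 53, UG4 for 58 of 59 and UG5 for 56 of 57. The library labelled UG6 was in the same state as fish 6 for 26 of 61 clear unigenes (42.6%) and in the same state as fish 1 for 56 of 61 (91.8%). The same comparison gave 99.0% to 100% for the 6 testes and 97.8% to 99.1% for the 3 ovaries with their own fish. Apart from the library labelled UG6 with fish 1, no stage I gonad or testis matched another fish at more than 71.2%. The ovaries were less clearly told apart: FG2 matched female fish 3 at 89.7%, and FG3 matched female fish 2 at 89.4%. FG1 matched female fish 2 at 6.25% and female fish 3 at 2.68%. The pattern of the females thus mostly divided fish 1 from fish 2 and 3. That is also the division by HiSeq model, so fish and sequencer cannot be told apart in it. With on set at 5 FPKM and off at 0.5 FPKM, the library labelled UG6 shared the state of fish 1 in 13 of 13 clear unigenes and that of fish 6 in 1 of 13. The cause of this was not tested. The library is called "the library labelled UG6" where a direction rests on it, and results that use its fish number are given with and without it. These thresholds were chosen after the data had been seen.

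**Figure D1:**
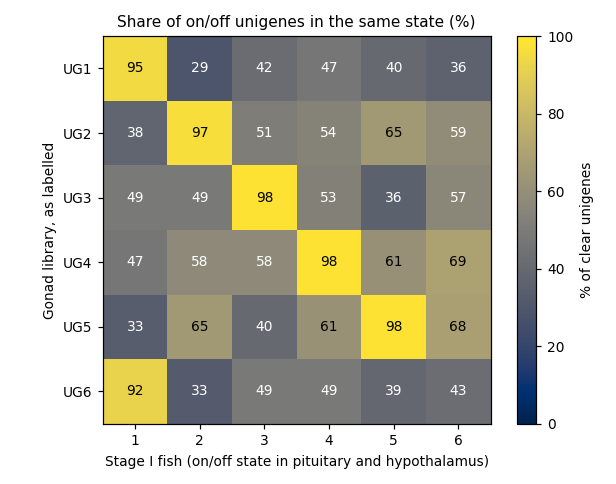
Share of clear on/off unigenes (%) for which each stage I gonad library (rows, as labelled) was in the same state as the pituitary and hypothalamus of each stage I fish (columns). UG1 to UG5 reached 95% to 98% with their own fish, while the library labelled UG6 reached 92% with fish 1 and 43% with fish 6.

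The members did not fall into one contrast between gonads. When the 6 values of each member were split at their largest gap, the members spread over 36 of the 62 possible divisions of 6 libraries. The most frequent division put UG4 and the library labelled UG6 low and the other 4 high (29 members), followed by UG4 alone low (27) and UG1 alone low (25). These were 14.5%, 13.5% and 12.5% of the members, against 2.77%, 7.36% and 8.66% of the other unigenes. UG2, UG3 and UG5 together were high for 11 members, UG1 and the library labelled UG6 together for 10, and UG4 alone for 7. Those were 5.5%, 5% and 3.5% of the members, against 2.63%, 1.74% and 6.12% of the other unigenes. UG4 had the lowest value for 83 members and UG1 for 48, against 12 to 28 for the other 4 libraries. Among the other unigenes of the pool, UG4 was lowest for 24.4% and UG1 for 23%. The highest value was in UG2 for 51 members, in the library labelled UG6 for 41, in UG5 for 39, in UG4 for 26, in UG3 for 24 and in UG1 for 19. Of the members, 62 (31%) were listed at 0 in at least 1 of the 6 gonads, against 1.03% of the other unigenes. A value of 0 widens the SD that chose the members, so this contrast follows in part from the choice.

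Over the 200 members, Pearson's correlation between gonads was 0.45 for UG2 with UG3, 0.43 for UG2 with UG5 and 0.40 for UG1 with the library labelled UG6. The lowest was -0.29, for UG4 with UG5. Over the other unigenes of the pool the 15 pairs lay between 0.56 and 0.83. These are descriptions across unigenes, which are not replicates, and low values follow from choosing the members for their spread. Of the members, 119 were single unigenes and 81 were contigs of clusters (similar contigs grouped in the assembly). Of the clustered contigs, 33 came from 14 clusters with more than 1 member, such as CL8667 and CL17588 with 4 each, and contigs of 1 cluster may share reads and are not separate observations.

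**Figure D2:**
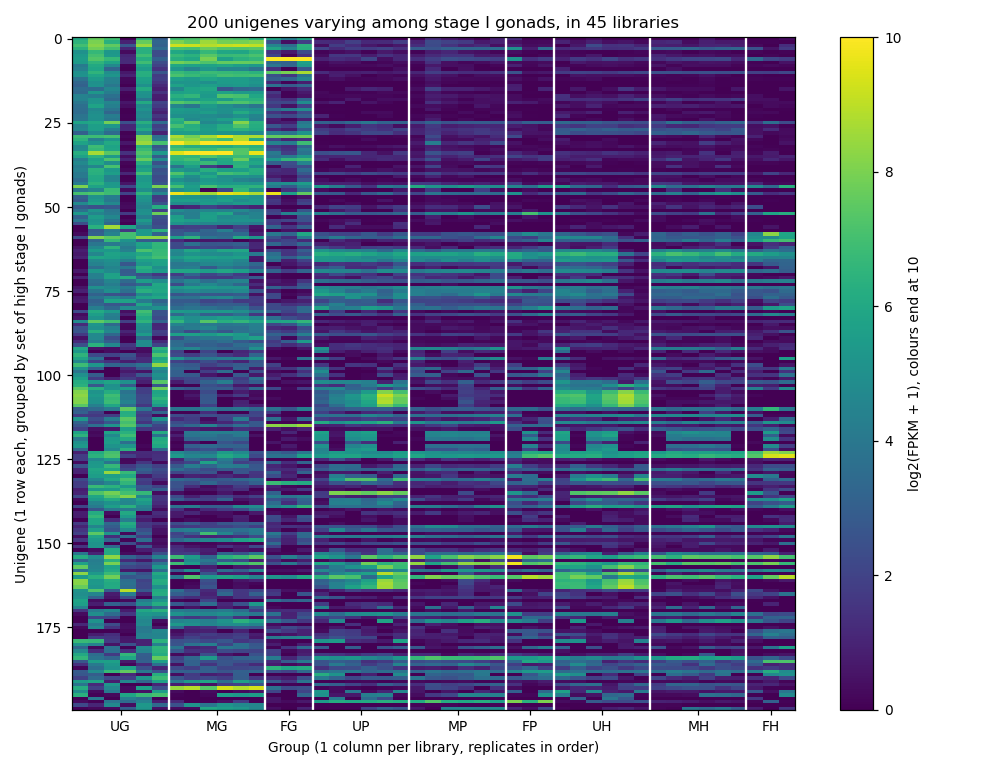
Levels of the 200 members (rows, ordered by the set of stage I gonads on the high side of the largest gap) in the 45 libraries (columns, by group), as log2(FPKM + 1). The top 2 blocks of 29 and 27 rows, low in UG4, are mostly high in the testes and low in pituitary and hypothalamus, while some rows further down are on and off by fish in 3 tissues.

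Outside the stage I gonads, the testis was where the members were most often present, but less often than the other unigenes of the pool. In every testis 124 members (62%) had 1 FPKM or more, against 95.2% of the other unigenes. In every ovary it was 83 (41.5%), against 47.4%. For the pituitary and hypothalamus groups it was 49 (UH) to 72 (UP) members, against 71.3% (FH) to 89.4% (UP) of the other unigenes. By the median over a group's libraries, the typical member was at 15.1 FPKM in UG, 10.3 FPKM in MG and 1.78 FPKM in FG, and at 1.40 FPKM in UP, 0.908 FPKM in MP, 0.481 FPKM in FP, 0.876 FPKM in UH, 0.607 FPKM in MH and 0.295 FPKM in FH. The other unigenes of the pool had medians of 9.08 FPKM in MG and 1.71 FPKM in FG, close to the members, and of 3.98 to 7.64 FPKM in the 6 pituitary and hypothalamus groups, which were all above the members. The highest of the 8 groups that took no part in the choice was MG for 101 members (50.5%) and for 39.0% of the other unigenes. That excess rested on UG4: of 200 unigenes chosen without UG4, MG was highest for 68, against 39.4% of the others, and without the library labelled UG6 for 93, against 40.5%. Only 34 members (17%) had a median of 1 FPKM or more in all 8 other groups, against 54.1% of the other unigenes, and 23 (11.5%) were under 1 FPKM in both testis and ovary, against 0.802%.

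A large block of members was found in gonads only. A unigene was counted as gonad-restricted when its median was under 1 FPKM in each of the 6 pituitary and hypothalamus groups, a definition chosen after the data had been seen. This held for 62 members (31%) and for 2.36% of the other unigenes of the pool. Of the 62, 60 had a median of 1 FPKM or more in testis and 43 in ovary, and 0 were under that level in both. Their median level was 10.8 FPKM in UG1, 35.7 FPKM in UG2, 17.8 FPKM in UG3, 0.166 FPKM in UG4, 31.7 FPKM in UG5 and 3.19 FPKM in the library labelled UG6. In testes it was 31.0, 27.1, 36.0, 28.4, 29.9 and 21.7 FPKM, and in ovaries 2.20, 0.968 and 4.33 FPKM. UG2 and UG5 thus lay within the range of the testes for this block, UG4 lay below every ovary, and the library labelled UG6 lay within the range of the ovaries. These positions rest on values that chose the members. The gonad-restricted unigenes that are no members did not share them, as given next, but the same values sorted those unigenes as well.

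UG4 carried much of the variation of this block. It had the lowest value for 45 of the 62 gonad-restricted members, and it lay on the low side of the split for 53 of the 62, against 71 of the 138 other members. The 514 gonad-restricted unigenes of the pool that are no members had a median of 5.26 FPKM in UG4 and of 6.995 to 11.2 FPKM in the other 5 stage I gonads, so UG4 was lowest for them too, by a smaller margin. Their median was 6.03 to 6.97 FPKM in the testes and 0.139 to 0.564 FPKM in the ovaries. For them UG4 and the library labelled UG6 thus lay above every ovary and near the testes. When the 200 were chosen without UG4, 31 (15.5%) were gonad-restricted, against 2.66% of the other unigenes, and without the library labelled UG6 it was 56. With the stricter demand of under 1 FPKM in every single pituitary and hypothalamus library, 34 members were gonad-restricted.

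**Figure D3:**
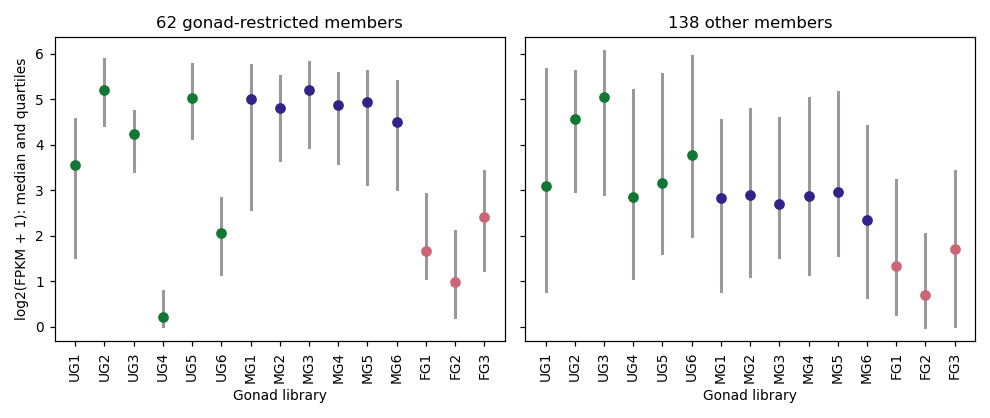
Median level (points) and quartiles (bars) over the 62 gonad-restricted members and over the 138 other members in each gonad library, as log2(FPKM + 1). For the restricted members the 6 testes lie together at 21.7 to 36.0 FPKM, while the stage I gonads spread between 0.166 FPKM in UG4 and 35.7 FPKM in UG2.

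Unigene47201 gave this pattern at high levels. It had 112, 114, 131, 0.135, 256 and 11.4 FPKM in UG1 to UG6, 422, 234, 409, 778, 435 and 419 FPKM in the testes, and 194, 197 and 213 FPKM in the ovaries. UG4 alone was near 0 among the 15 gonads, and no pituitary or hypothalamus library was above 3.72 FPKM. Unigene22077 had 62.1, 196, 122, 0, 88.8 and 6.54 FPKM in UG1 to UG6, 122, 148, 205, 164, 141 and 87.5 FPKM in testes and 56.3, 17.5 and 57.4 FPKM in ovaries. It was listed at 0 in UG4 and in all 6 UP libraries. The contig CL11518.Contig1 was likewise listed at 0 in UG4, where the other 5 stage I gonads had 86.9, 19.0, 35.6, 259 and 14.2 FPKM, and it was far lower in ovaries, as given below with the tests.

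A smaller set of gonad-restricted members ran the other way, with higher levels in some stage I gonads than in any stage II gonad. Unigene97526 had 0, 81.3, 387, 56.8, 12.4 and 4.49 FPKM in UG1 to UG6, 0.537 to 2.86 FPKM in testes and 8.41, 1.98 and 6.64 FPKM in ovaries. Unigene28730 had 1.02, 52.6, 341, 103, 5.16 and 3.27 FPKM in UG1 to UG6, 0.410 to 5.42 FPKM in testes and 7.74, 0.677 and 8.04 FPKM in ovaries. Both peaked in UG3, and both were high in UG2, UG3 and UG4. CL2034.Contig2, with 0, 6.35, 15.9, 2.11, 42.0 and 82.7 FPKM in UG1 to UG6, was present in all 6 testes at 0.343 to 18.9 FPKM and was listed at 0 in all 30 pituitary and hypothalamus libraries. Unigene60071 had its highest value, 174 FPKM, in UG2, with 34.9 FPKM in UG3 and 0.147 to 6.93 FPKM in the other 4, and its testes were also uneven, at 121 FPKM in MG3 and 3.00 to 22.8 FPKM in the other 5.

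The members with the highest means in UG were Unigene25622, CL15081.Contig3 and Unigene65271. Unigene25622 had 4.04 FPKM in UG1 and 275, 178, 129, 308 and 310 FPKM in UG2 to UG6. CL15081.Contig3 had 124, 286, 190, 5.56, 348 and 7.56 FPKM in UG1 to UG6, against 605, 580, 471, 555, 604 and 533 FPKM in the testes and 22.7, 11.01 and 84.5 FPKM in the ovaries. The first was low in UG1 only, and the second in UG4 and the library labelled UG6.

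The 25 members with UG1 alone low, of which Unigene25622 is one, also shared low libraries in groups that took no part in the choice. MG6 was the lowest testis for 21 of the 25 (84%), for 42 of the 175 other members (24%), for 47.6% of the 1889 other unigenes of the pool with UG1 alone low, and for 24.8% of all other unigenes. UH6 was the lowest stage I hypothalamus for 14 of the 25 (56%), for 56.3% of the 1889 and for 37.4% of all other unigenes. Unigene46305, for example, had 11.3, 13.2, 12.2, 9.65, 12.9 and 4.70 FPKM in MG1 to MG6, and 15.6, 11.3, 7.61, 10.5, 0.160 and 0.452 FPKM in UH1 to UH6. The share for UH6 was thus near that of other unigenes with the same split. In the males, MH6 was the lowest hypothalamus for 12 of the 25 (48%), for 32.7% of the 1889 and for 21.4% of all other unigenes. UH5 was the lowest for 6 of the 25 (24%), against 31.9% of the 1889, so no such excess was seen there. MP1 was the lowest male pituitary for 7 of the 25 (28%), against 14.8% of the 1889 and 16.2% of all other unigenes. Among the 175 other members, MP1 was the lowest for 77 (44%). Each other MP library was the lowest for 1 to 5 of the 25. UP5 was the lowest stage I pituitary for 10 of the 25 (40%), for 32.5% of the 1889 and for 17.98% of all other unigenes. UG1 had the lowest relative depth of the stage I gonads, while that of UH6 was 1.13, and the part of depth or RNA quality in this was not tested.

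Some members were on or off by fish in all 3 tissues. With the fish numbers as labelled, the fish on the high side in the gonad were all above the fish on the low side in pituitary and in hypothalamus for 15 members (7.50%), against 4.95% of the other unigenes. By 1 or more on the log2 scale in all 3 tissues it was 7 members (3.50%), against 0.151%. The demand of 1 or more includes the stage I gonads, where the choice made the gaps of members large. Its contrast with the other unigenes therefore follows in part from the choice, here and in the counts below for stage I. Taking the pituitary by itself, the split was carried for 31 members (15.5%), against 19.6% of the other unigenes. For the hypothalamus by itself it was 32 members (16%), against 12.6%. Without fish 6, the split of the remaining 5 gonads was carried for 44 members (22%), against 8.2% of the other unigenes, and by 1 or more for 27 members (13.5%), against 0.362%. Leaving out any one of the other 5 fish gave 6 or 7 by this demand. With the library labelled UG6 set beside the pituitary and hypothalamus of fish 1, the counts were 38 (19%), against 5.87%, and 26 (13%), against 0.289%. In the 6 males, where the testis library of each fish matched its own fish, splitting the members by their testis values gave 25 carried (12.5%), against 10.5%, and 10 carried by 1 or more (5.00%), against 0.257%. With the tissues of male fish 4 exchanged, these counts were 23 and 10.

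Unigene94773 had the largest SD of all. It had 1.01, 149, 235, 126 and 101 FPKM in UG1 to UG5 and 0.253 FPKM in the library labelled UG6, with 2.21, 258, 238, 187, 296 and 200 FPKM in UP1 to UP6 and 1.04, 149, 176, 186, 314 and 172 FPKM in UH1 to UH6. Fish 1 was near 0 in its 3 tissues, and fish 6 was high in pituitary and hypothalamus while the gonad under its number was not. No testis was above 0.539 FPKM, and MP4, whose tissue label is contradictory, was the highest male library at 3.90 FPKM. Of the females, fish 1 and 2 had more than 1 FPKM, at 36.4 and 10.03 FPKM in pituitary and 42.8 and 4.93 FPKM in hypothalamus.

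Unigene27128 had 79.9, 0.063, 0.180, 57.3, 105 and 133 FPKM in UG1 to UG6, 33.1, 0.511, 0.610, 18.5, 21.6 and 0.195 FPKM in UP1 to UP6, and 17.6, 0.258, 0.441, 9.01, 10.4 and 0.112 FPKM in UH1 to UH6. The gonad level was the highest of the 3 tissues in fish 1, 4 and 5. In the males it was on in fish 4, 5 and 6, at 49.2, 41.3 and 46.4 FPKM in testis against 0 to 0.126 FPKM in fish 1 to 3. The males' pituitary and hypothalamus divided the fish in the same way, and of the females only fish 3 had it, at 8.69 FPKM in ovary and 33.4 FPKM in pituitary.

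Unigene49879 was carried with the labels as given. It had 108, 100, 2.37, 0.573, 0.931 and 83.7 FPKM in UG1 to UG6, 35.9, 44.1, 1.40, 1.12, 0.612 and 54.0 FPKM in UP1 to UP6, and 28.9, 33.0, 0.354, 0.719, 0.445 and 20.6 FPKM in UH1 to UH6. Fish 1, 2 and 6 were high in all 3 tissues and fish 3, 4 and 5 low. Fish 1 and fish 6 were in the same state here, so the label of the gonad library could not change the outcome. Unigene22313, high in fish 1, 3 and 6 of all 3 tissues, was of the same kind.

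Other members carried with the labels as given were on in few fish or off in few. CL952.Contig3 had 0, 32.9, 0, 0, 23.2 and 0.270 FPKM in UG1 to UG6, 1.18, 25.3, 0, 0, 56.3 and 0.293 FPKM in UP1 to UP6, and 0, 40.6, 0, 0, 19.7 and 0 FPKM in UH1 to UH6. Fish 2 and 5 alone had it in each tissue. Unigene21700 was the opposite case, with 69.9, 41.7, 56.2, 32.6, 0.859 and 163 FPKM in UG1 to UG6, 29.1, 22.98, 22.997, 19.2, 0.903 and 13.1 FPKM in UP1 to UP6, and 36.9, 15.4, 15.9, 10.8, 0.616 and 12.2 FPKM in UH1 to UH6. Fish 5 was the low fish in all 3 tissues, and the gonad levels were the highest of the 3 tissues in the other fish. Unigene10502 was not carried with the labels as given, but it was carried without fish 6. It was low in UG1, UG5 and the library labelled UG6, at 0, 0.637 and 2.31 FPKM, against 46.4, 47.0 and 64.5 FPKM in UG2, UG3 and UG4. In pituitary and hypothalamus fish 1 and 5 were low for it, at 0.506 and 0.335 FPKM and at 0.635 and 1.07 FPKM, while fish 6 was at 10.4 FPKM and 22.99 FPKM, among the high fish.

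**Figure D4:**
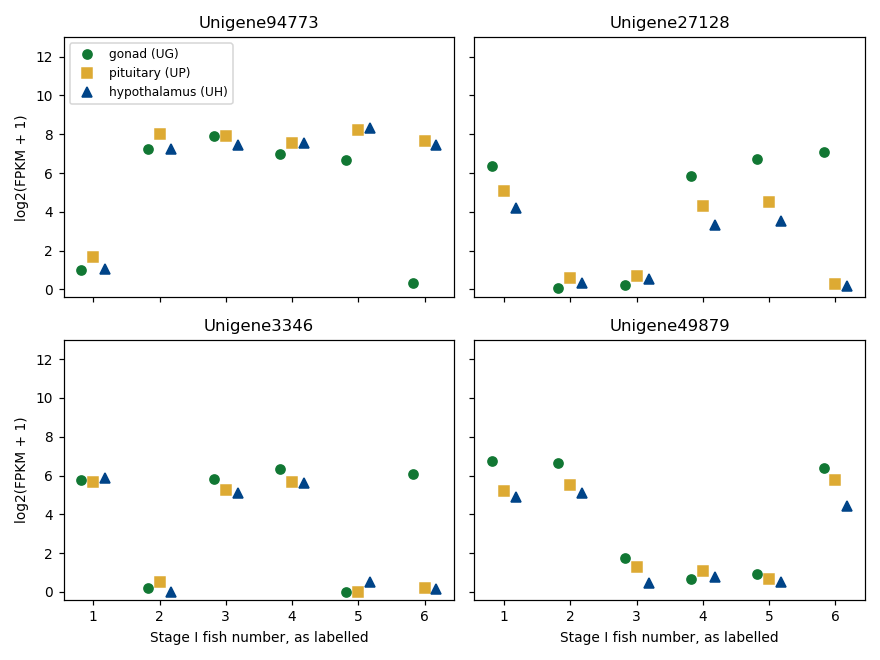
Levels of 4 members in the gonad, pituitary and hypothalamus of the 6 stage I fish, as log2(FPKM + 1), 1 point per library. The 3 tissues of fish 1 to 5 lie together on or off, while for Unigene94773, Unigene27128 and Unigene3346 the gonad labelled fish 6 is on the other side from its pituitary and hypothalamus.

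A set of 5 members, grouped after their values had been seen, divided the fish in the same way: Unigene3346, CL2111.Contig2, Unigene27614, CL5895.Contig2 and Unigene27990. Unigene3346 had 54.4, 0.146, 55.3, 81.3, 0 and 67.8 FPKM in UG1 to UG6, 50.2, 0.445, 37.7, 49.5, 0 and 0.151 FPKM in UP1 to UP6, and 57.7, 0, 33.8, 48.1, 0.414 and 0.130 FPKM in UH1 to UH6. In the males it was on in fish 2 to 5, at 14.8, 18.7, 18.8 and 17.2 FPKM in testis against 0.153 FPKM in fish 1 and 0 FPKM in fish 6, with the same fish on in pituitary and hypothalamus. In the females it was at 32.4 FPKM in the pituitary of fish 2, against 0 and 1.30 FPKM in the other 2. All 5 were high in fish 1, 3 and 4 and low in fish 2 and 5 of stage I, and high in males 2 to 5 and low in males 1 and 6, in all 3 tissues. They carry different unigene and cluster numbers, and whether they are pieces of 1 transcript or neighbours in the genome was not tested.

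For 10 members the high side of the gonads was UG1 with the library labelled UG6. CL7389.Contig3 had 61.6, 0.428, 0.327, 1.33, 0.337 and 86.5 FPKM in UG1 to UG6, while of the pituitaries UP1 alone was high, at 35.7 FPKM against 1.06 to 1.68 FPKM in UP2 to UP6, and of the hypothalami UH1 alone, at 25.2 FPKM against 0.484 to 1.14 FPKM. Unigene73860 had 38.8, 0, 0.247, 0, 0.255 and 62.8 FPKM in UG1 to UG6, and 17.8 FPKM in UP1 and 10.9 FPKM in UH1, against at most 1.34 FPKM in any other pituitary or hypothalamus of stage I. The levels of the library labelled UG6 were above those of UG1 for both. For 6 more members these 2 libraries were low together, among them Unigene94773 and Unigene58530, which had 3.63, 58.4, 157, 276, 22.2 and 1.81 FPKM in UG1 to UG6 and was at most 2.63 FPKM in UP and UH.

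Another co-varying set belonged to stage I in all 3 tissues. A median of 1 FPKM or more in UP and UH together with a median under 1 FPKM in all 6 stage II groups held for 11 members (5.50%) and for 0.0871% of the other unigenes, by a definition chosen after the data had been seen. Of these 11, 10 varied together over the 18 stage I libraries, with pairwise Pearson correlations of log2(FPKM + 1) between 0.90 and 1.00: Unigene79540, Unigene80293, Unigene44616, Unigene79559, Unigene79260, Unigene79342, CL6956.Contig2, Unigene78032, CL4632.Contig2 and Unigene80744. They were picked for this likeness, which is no test. The median of the 10 was 274, 34.2, 70.0, 11.8, 3.14 and 60.3 FPKM in UG1 to UG6, 5.37, 18.6, 30.7, 51.7, 359 and 176 FPKM in UP1 to UP6, and 93.7, 100.2, 43.6, 140.1, 364 and 144 FPKM in UH1 to UH6. The order of the fish differed between tissues: fish 1 was highest in gonad and lowest in pituitary, and fish 5 was lowest in gonad and highest in pituitary and hypothalamus. In stage II the median of the 10 was at most 4.51 FPKM in any library (MG3), and it was 0 FPKM in every female library. The 11th, CL177.Contig4, was on in fish 2, 4 and 5 of stage I in all 3 tissues, at 15.4, 19.2 and 12.8 FPKM in gonad, and was listed at 0 in the gonads of fish 1 and 3 and in the library labelled UG6. The count rested on UG1 and UG5: of 200 unigenes chosen without UG1 it was 2, and without UG5 it was 4.

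A single gonad was high for 22 members (11%), a pattern that was not particular to the members. UG4 alone was high for 3.5% of the members and 6.12% of the other unigenes, and the library labelled UG6 alone for 1% and 5.95%. For UG1 alone it was 1.5% and 2.77%, for UG2 alone 2.5% and 2.44%, and for UG3 alone 2.5% and 1.67%. Unigene68579 had 68.7 FPKM in UG3 and at most 1.56 FPKM in the other 5, and Unigene60071 and CL20724.Contig2 were highest in UG2. Unigene5816 had 188 FPKM in UG4 and 1.54 to 16.6 FPKM in the other 5, with 9.14 to 15.3 FPKM in the testes and 5.17 to 19.1 FPKM in the ovaries, so that UG4 stood above every other gonad. CL16666.Contig1 and CL16666.Contig3, from 1 cluster, were high in UG2 and UG3 only. CL16666.Contig1 had 69.1 and 130 FPKM there against 0.827 to 1.43 FPKM in the other 4, and yet it was even in the pituitaries (24.2 to 44.8 FPKM) and hypothalami (32.5 to 56.4 FPKM) of the same 6 fish. Unigene90336 and Unigene97575 were high in UG2 and UG4 only, at 70.2 and 64.3 FPKM and at 97.0 and 44.4 FPKM, and no testis was above 1.14 FPKM for either.

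The members were also more uneven than other unigenes among fish in groups that did not choose them. Of the 200, 89 (44.5%) had an SD of log2(FPKM + 1) among the 6 testes above the 95th percentile of the other unigenes, which 5% of the other unigenes exceed by construction. The count was 68 (34%) in UP, 69 (34.5%) in UH, 50 (25%) in MP and 37 (18.5%) in MH. The median SD in testes was 0.68 over the members and 0.30 over the other unigenes. UP and UH are tissues of the same fish as the gonads, whereas the males are other fish.

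The testis and the ovary of stage II were compared for every unigene with limma on log2(FPKM + 1), since this contrast uses none of the values that chose the members. Of the 200 members, 179 passed the filter of 1 FPKM or more in at least 3 of the 9 libraries. At an adjusted p under 0.05, 125 of them were higher and 15 lower in testis than in ovary. This was 78.2% of the tested members (69.8% higher, 8.38% lower), against 81.8% of all 85760 unigenes tested (73.2% higher, 8.62% lower), so the members' share was near the background. The median log2 fold change was 1.93 over the tested members and 1.24 over all unigenes. The ovaries of fish 2 and 3 were sequenced on a later HiSeq model than all testes, so sex and sequencer are confounded in part. With only the ovary of fish 1, on the earlier model, the median was 1.53 over the tested members and 1.04 over all unigenes. Adding 1 before the logarithm makes the fold changes of low unigenes too small. After median-of-ratios scaling the median of all unigenes was 0.64, that of the tested members was 1.06, and 85 members were higher and 33 lower, with 75% of all unigenes called (50.1% higher, 24.9% lower). Of the 62 gonad-restricted members, all tested, 51 were higher and 3 lower in testis. The calls over the 514 gonad-restricted unigenes that are no members are not given. Their medians of 6.03 to 6.97 FPKM in testes and 0.139 to 0.564 FPKM in ovaries had the same direction, so it was not particular to the members. Unigenes could pass the filter through the testes alone or the ovaries alone, so these counts are no measure of the set as a whole.

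The largest differences between testis and ovary among members with no overlap between the groups were as follows. CL8667.Contig3 had 267, 186, 371, 236, 238 and 284 FPKM in testes (mean 264 ± 62.2, SD, n = 6) against 4.84, 0.301 and 2.60 FPKM in ovaries (2.58 ± 2.27, n = 3), a log2 fold change of 6.42 ± 0.40 (SE) with an adjusted p of 2.0e-07 from limma. In the stage I gonads it had 87.7, 254, 81.1, 0.942, 196 and 8.49 FPKM. UG2 and UG5 lay in the range of the testes, and UG4 in that of the ovaries.

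Unigene65271 had 721, 1310, 1065, 1302, 161 and 819 FPKM in testes against 15.3, 2.59 and 12.8 FPKM in ovaries, a log2 fold change of 6.33 ± 0.64 (SE) with an adjusted p of 3.3e-06 from limma. MG5 was the lowest testis and still above every ovary. In UG1 to UG6 it had 73.8, 404, 168, 1.66, 156 and 40.5 FPKM. CL11518.Contig1 had 302, 319, 209, 122, 443 and 67.8 FPKM in testes against 3.01, 1.01 and 1.45 FPKM in ovaries (log2 fold change 6.25 ± 0.51, adjusted p of 7.9e-07 from limma). CL11434.Contig2 had 354, 471, 165, 645, 455 and 646 FPKM in testes against 12.8, 3.79 and 4.38 FPKM in ovaries (5.88 ± 0.45, adjusted p of 5.3e-07 from limma), and 71.4, 2.74, 23.4, 0.257, 47.8 and 4.22 FPKM in UG1 to UG6. Of these 4, all were lowest in UG4 among the stage I gonads.

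Members lower in testis were few but included some of the most abundant ovary transcripts of the set. CL15035.Contig1 had 6.15, 10.04, 19.99, 5.69, 11.9 and 5.69 FPKM in testes against 303, 259 and 381 FPKM in ovaries, a log2 fold change of -4.97 ± 0.36 (SE) with an adjusted p of 4.4e-07 from limma. Unigene36400 had 75.5, 60.4, 243, 50.5, 80.5 and 97.5 FPKM in testes against 1794, 1078 and 1308 FPKM in ovaries (-3.95 ± 0.41, adjusted p of 3.9e-06 from limma). CL739.Contig1 had 2.58 to 7.05 FPKM in testes against 87.0, 58.2 and 69.4 FPKM in ovaries (-3.89 ± 0.27, adjusted p of 3.5e-07 from limma). Unigene52449 had 4.00 to 9.17 FPKM in testes against 111, 78.5 and 68.7 FPKM in ovaries (-3.73 ± 0.29, adjusted p of 5.9e-07 from limma).

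Among the stage I gonads, 3 of these 4 ovary-high members were highest in UG4. CL15035.Contig1 had 165 FPKM there against 3.23 to 34.7 FPKM in the other 5, CL739.Contig1 53.1 FPKM against 0.141 to 33.1 FPKM, and Unigene52449 94.8 FPKM against 0.225 to 22.7 FPKM. Unigene36400 was the exception, with 1.29 FPKM in UG4 and 7.33 to 156 FPKM in the other 5. Of all 15 members lower in testis, 6 were highest in UG4 and 2 lowest there, while of the 125 members higher in testis, 11 were highest and 67 lowest in UG4. Of the 39 tested members not called, 7 were highest and 13 lowest in UG4. UG1 was lowest for 8 of the 15 and for 26 of the 125. The stage I gonad values chose the members, so these counts are a description and no test.

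**Figure D5:**
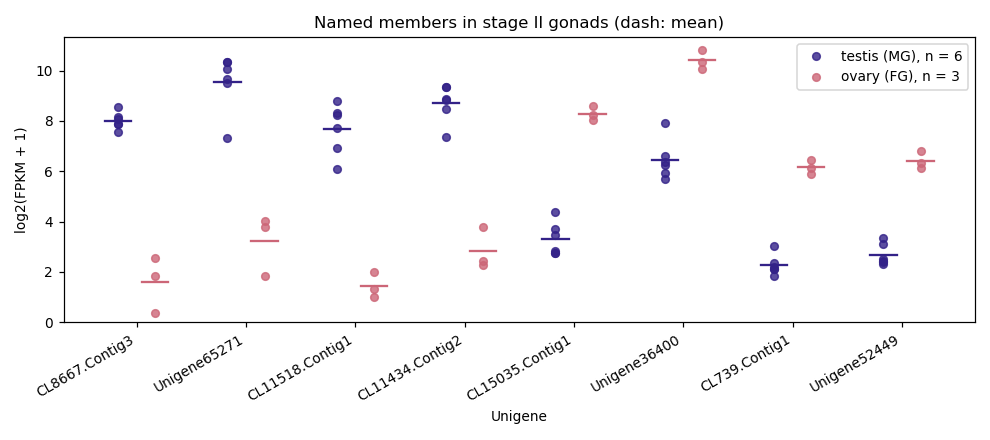
Levels of the 4 members with the highest and the 4 with the lowest log2 fold change between testis and ovary without overlap, as log2(FPKM + 1), with 1 point per library and a dash at the mean. The first 4 are at 67.8 FPKM or more in every testis and at 15.3 FPKM or less in every ovary, and the last 4 are the other way round.

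Short lists of unigenes found in the gonad of 1 sex in stage II were also read in the stage I gonads. Asking for 20 FPKM or more in all 3 ovaries and 1 FPKM or less in all testes and in all pituitaries and hypothalami of males and of stage I fish gave 40 unigenes, and the mirror rule for testis gave 1, of 121952 in all. None was a member, but with lists of this size that carries no information on the members. Of the 40, 7 were at 1 FPKM or more in UG2, 4 in UG3, 1 in UG1, and 0 in UG4, UG5 and the library labelled UG6. The testis unigene had 47.1, 81.01, 76.6, 634 and 41.2 FPKM in UG1 to UG5 and 18.9997 FPKM in the library labelled UG6, so it was present in all 6 and highest in UG4, unlike the 4 testis-high members described above. At the level of these files a unigene at 1 FPKM or less may still be present, so absence was not shown.

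Within the males, the testis was set against the other tissues of the same fish, with the testis libraries shared between these tests and the one against ovary. The fits held no term for the fish, so the tissues were not paired in them. Of 170 members tested against MP, 109 were higher and 21 lower in MG (76.5% of the tested members, against a background of 61.5%, of which 41.3% were higher and 20.2% lower). Of 163 tested against MH, 104 were higher and 16 lower in MG (73.6% of the tested members, against a background of 70.1%, of which 43% were higher and 27.1% lower). With the tissues of male fish 4 exchanged, 127 members were called against MP (74.3% of those tested, background 56.4%). Against MH it was 120 (73.6%, background 62.3%). With the fish as a block, 136 were called against MP (80%, background 66.5%) and 135 against MH (82.8%, background 74.8%). Members could pass the filter through the testis alone, so these counts are no measure of the set as a whole. Of the 200 unigenes chosen without UG4, 84 were called against MP and 85 against MH, and of those chosen without the library labelled UG6, 128 were called against MP and 121 against MH. These come from the fits without the block, with the backgrounds of 61.5% and 70.1%. How many of each 200 passed the filter is not given, so they are not set against those shares.

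Unigene36961 was the highest in both. It had 2241, 529, 1252, 1650, 1724 and 1369 FPKM in testes, against 0.645 to 17.8 FPKM in MP and 0.351 to 2.47 FPKM in MH, and log2 fold changes of 8.57 ± 0.51 and 9.53 ± 0.31 (SE), with adjusted p of 4.0e-09 and 3.0e-12 from limma. In UG1 to UG6 it had 52.8, 34.5, 65.8, 0.525, 358 and 132 FPKM. The lowest against MP was Unigene60040, at 0 to 2.27 FPKM in testes against 48.2 to 156 FPKM in MP (log2 fold change -5.65 ± 0.32, adjusted p of 2.2e-09 from limma). The lowest against MH was Unigene32702, at 0 to 1.41 FPKM in testes against 8.19 to 17.8 FPKM in MH (-2.99 ± 0.24, adjusted p of 3.1e-08 from limma).

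Within the females, with 3 fish and 116 members tested in each comparison, 53 members were higher and 29 lower in FG than in FP, and 50 were higher and 28 lower in FG than in FH. This was 70.7% of the tested members against FP, where the background was 52.5% (12.1% higher, 40.3% lower), and 67.2% against FH, where it was 48.9% (15.4% higher, 33.5% lower). These fits did not pair the tissues of a fish. With the fish as a block, 93 members were called against FP (80.2%, background 62.2%) and 91 against FH (78.4%, background 55.6%). Here too members could pass the filter through the ovary alone, so these shares are no measure of the set as a whole. With no filter, 52 of 200 members (26%) were called against FP, where the background was 19.8%, and 57 (28.5%) against FH, where it was 14.6%. The number of members lower in FG changed when single libraries were left out, and so did the count over all unigenes. Without FG2, 14 of 149 tested members were lower against FP, and 14202 of 63157 unigenes. Against FH it was then 16 of 144 tested members, and 10378 of 59307 unigenes. Without FP2, 19 of 146 tested members were lower against FP, and 18809 of 58414 unigenes. FH1 held 45.2% of its summed FPKM in 10 unigenes and had a relative depth of 1.41. Without FH1, 97 of 140 tested members were called against FH (59 higher, 38 lower), and 26943 of 54297 unigenes. All unigenes had a median log2 fold change of -0.72 against FP and -0.44 against FH. After median-of-ratios scaling it was -0.02 and -0.03. The members then divided into 64 higher and 13 lower against FP, with 51.8% of all unigenes called (24.3% higher, 27.5% lower), and into 57 higher and 24 lower against FH, with 55.2% called (25.9% higher, 29.3% lower). Unigene36400 was highest in both, at 1794, 1078 and 1308 FPKM in FG against 33.2, 1.48 and 2.46 FPKM in FP and 9.66, 3.30 and 2.31 FPKM in FH (log2 fold changes 7.68 ± 0.86 and 8.0 ± 0.70, adjusted p of 2.2e-04 and 1.3e-06 from limma). The lowest against FP was again Unigene60040, at 0.494, 0.232 and 0.585 FPKM in FG against 259, 79.4 and 260 FPKM in FP (-6.94 ± 0.51, adjusted p of 6.0e-05 from limma), and the lowest against FH was again Unigene32702, at 2.18, 3.18 and 1.31 FPKM in FG against 44.7, 104 and 128 FPKM in FH (-4.77 ± 0.62, adjusted p of 4.8e-05 from limma).

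Unigene60040 was high in every pituitary and Unigene32702 was present in every hypothalamus, and both varied in the stage I gonads. Unigene60040 had 13.8, 10.5 and 20.7 FPKM in UG3, UG4 and UG5 and 0.0692 to 0.792 FPKM in the other 3. Unigene32702 had 99.7 FPKM in UG3, 34.1 FPKM in UG4, 4.91 to 8.66 FPKM in UG2, UG5 and the library labelled UG6, and was listed at 0 in UG1. No testis or ovary reached the levels that these 2 members had in UG3.

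Between the pituitary and the hypothalamus of the stage I fish, 109 members were tested, of which 15 were higher and 11 lower in UP. This was 23.9% of the tested members, below the background of 46.3% (28.1% higher, 18.2% lower). With the fish as a block, 51 members were called (27 higher, 24 lower), or 46.8% of the tested members. The background was then 51.2% (31.5% higher, 19.8% lower), so that most of the gap to the background was absent from the paired fit. By the NOISeq rule 16 of the 109 were called, and 12241 of all 80642 unigenes. With a log2 difference of at least 1 also demanded in limma, it was 17 of the 109, and 15691 of the 80642. The size of the gap thus depended on the rule for a call. Unigene60040 was the highest, at 43.4, 71.0, 61.1, 66.3, 78.9 and 69.7 FPKM in UP against 0.272, 0.142, 6.22, 3.93, 4.04 and 4.79 FPKM in UH (log2 fold change 4.26 ± 0.42, adjusted p of 1.2e-06 from limma). Unigene32702 was the lowest, at 0 to 1.37 FPKM in UP against 7.71, 8.32, 8.11, 9.88, 4.84 and 7.46 FPKM in UH (-2.39 ± 0.22, adjusted p of 4.8e-07 from limma). For Unigene60040, fish 1 and 2 were low in both UG and UH, whereas the library labelled UG6 was low and UH6 was not.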

How the data were processed

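RNA-seq libraries (45) were made from 3 tissues of 15 fish. According to the deposited protocol and the methods, the authors filtered reads with SOAPnuke, assembled them with Trinity and TGICL, aligned them to the unigenes with SOAP2 and estimated with RSEM the FPKM values used here, with no counts. The read totals, apart from the remark on the stage I gonads, and the unigene annotation that the study describes were not used here. A relative depth was estimated from the smallest nonzero FPKM steps, and it ran from 0.790 (UG1) to 1.06 among the stage I gonads. Every sample column of the table was matched to a sample title, and 0 were left unused. For the hypothalamus and pituitary of male fish 4 the tissue in the sample titles contradicts the library code in the same titles, the code was followed, and exchanging them was an alternative.

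Members and lists were chosen with earlier results of these data known. The _All ending of unigene names was left off. Each of 6 comparisons was fitted to log2(FPKM + 1) with a filter (1 FPKM or more in 3 libraries where FG is compared and in 6 otherwise), using limma 3.58.1 (R 4.3.3, intensity trend) and Benjamini-Hochberg adjustment over all unigenes tested, and an adjusted p under 0.05 counted as a call. Comparisons involving MG share its libraries, as do those involving FG. The main fits held no term for the fish, so tissues of the same fish were paired only in the alternative with a fish block. No test was run on the values of the stage I gonads. The p-values measure the spread between fish of 1 population. For the unevenness of its female replicates the paper proposes, as a possibility, that the females were of different families.

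Members named are the 10 with the largest SD, the 2 with the largest SD of each set of high gonads that holds 5 or more, the 3 highest means in UG, the ranks at the limit, the 4 highest and 4 lowest differences between MG and FG without overlap, and the highest and lowest of the other comparisons. Members of the fish-wise, UG1-low and stage I sets were named after their values had been seen. A list of marker genes by name could not be applied, since the files used here pair no unigene with a gene name. Libraries of the same fish deviated together (correlation of deviations by number 0.115 to 0.449 between UP and UH, 0.252 to 0.349 between MG and MP, 0.246 to 0.374 between MG and MH, 0.227 to 0.453 between FG and FP and 0.199 to 0.425 between FG and FH). Between MG and FG, which are different fish, it was -0.039 to 0.030. The tissues come from the same fish by the protocol.

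Alternatives were another pseudocount (0.1), no filter, median-of-ratios scaling, a fold change minimum, a fish block, the NOISeq rule of the authors written anew (probability of 0.8), other rules for the members, and leaving out each library. Data were simulated with the group sizes of MG and FG, with both groups drawn from the means and SDs of MG. There limma called 43 of 100 unigenes changed by 1 and 95 of 100 changed by 3 on the log2 scale, with 6 false calls. With the group sizes of UP and UH, both drawn from UP, it called 52 of 100 and 98 of 100, with 7 false calls. No other unigenes were changed, and the spread of FG or UH and any general shift between groups were left out. These rates therefore do not carry over to the real comparisons. Further steps used Python 3.11.15, pandas 2.3.3, NumPy 2.4.6, Numba 0.67.0 and Matplotlib 3.10.9.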

Additional observations from a re-analysis of the deposited data

Results flagged for a closer look

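In 51 groups of 6 libraries that took no part in the choice (named members in MG, and medians of the member sets in MG, UP, UH, MP and MH), Dixon's test marked 3 in which 1 library stood far from the nearest of the others, and chance alone marks about 1 in 20. Unigene38934 was lowest in MG6 at 15.0279 FPKM, where the other 5 testes had 30.02 to 43.1 FPKM. Unigene65271 was lowest in MG5 at 161 FPKM, where the other 5 had 721 to 1310 FPKM. The median of the gonad-restricted members was highest in MP2 among the male pituitaries, at 0.379 FPKM, against 0.0800 to 0.148 FPKM in the other 5. All of these medians are under 1 FPKM, where unigenes cannot be told from absent ones.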

How the results depend on the processing

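The alternatives on the choice of members, on the gonad-restricted definition, on the split by fish and on the spread in other groups were in part chosen after seeing the data. Of the 200 members, 114 were kept with a pseudocount of 0.1, 126 with a mean of 20 FPKM or more, 86 with the median absolute deviation in place of the SD, 177 after median-of-ratios scaling, and 121 (without UG4) to 166 (without UG3) when 1 gonad was left out. Gonad-restricted members numbered 40 when the members were chosen at a mean of 20 FPKM or more, 34 when every pituitary and hypothalamus library had to be under 1 FPKM, and 31 (without UG4) to 72 (without UG1) when chosen without 1 gonad. The split by gonad was carried to both other tissues for 38 members with the library labelled UG6 set beside fish 1, and for 17 (without fish 1) to 44 (without fish 6) with 1 fish left out. By 1 or more on the log2 scale it was carried for 11 members with a pseudocount of 0.1, for 26 with the library labelled UG6 set beside fish 1, and for 6 (without fish 5) to 27 (without fish 6) with 1 fish left out. With a pseudocount of 0.1, 79 members in MP and 70 in MH were above the 95th percentile of the spread of other unigenes.

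Members called between FG and FP numbered 52 with no filter. Between UP and UH they numbered 17 when a log2 difference of at least 1 was also demanded, 16 by the NOISeq rule and 51 with the replicate block, which pairs the tissues of each fish. Of all 80642 unigenes tested there, 15691 were called with the demand of at least 1 and 12241 by the NOISeq rule. The block moved no other count by more than 1.5 times: it gave 140 members between MG and FG, where numbers are not pairs, 136 for MG and MP, 135 for MG and MH, 93 for FG and FP and 91 for FG and FH. Between MG and MP, 84 members were called when they were chosen without UG4. With 1 library left out of the fit or of the choice, the counts were 123 to 149 (MG and FG), 84 to 149 (MG and MP), 85 to 145 (MG and MH), 64 to 93 (FG and FP), 58 to 97 (FG and FH) and 18 to 36 (UP and UH). The numbers tested and the calls over all unigenes moved as well, so these ranges are no measure of the members alone. For FG and FP, 64 of 146 tested members were called without FP2, and 23137 of 58414 unigenes. Without FP1 it was 93 of 142 tested members, and 29861 of 56106 unigenes. With 1 library left out, the members above the 95th percentile of spread were 74 to 93 in MG, 62 to 71 in UP, 57 to 73 in UH, 43 to 54 in MP and 30 to 39 in MH. Over all unigenes, the middle log2 fold change between MG and FG was 0.64 after median-of-ratios scaling and 1.24 without it. The cause of these changes was not tested. The 18 fold changes named kept their direction and their call in all 252 pairs of a named fold change and an alternative fit. For MG and FG these include the fit with only the ovary of fish 1. The 18 were picked as called, extreme and without overlap between groups, so this was largely fixed in advance. A fit on libraries of the earlier sequencer alone could not be run for FG with FP or FH, since it leaves 1 library a group. The table holds FPKM without counts, so no counting error is given, and unigenes under 1 FPKM cannot be told from absent ones.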
